A study of Mus musculus with 3 samples.

Results

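The genes described here are 10 imprinted genes that have been linked to the preadipocyte state, namely H19, Meg3, Peg3, Mest, Dlk1, Ndn, Plagl1, Zim1, Igf2r and Airn. They were followed through every probe set (a group of short probes read out as 1 value) that the array annotation assigns to 1 of these genes and to no other. By this rule 9 of the 10 genes were measured, by 38 probe sets, out of 18194 genes and 34958 probe sets with 1 gene on the array. H19 had no probe set of its own. The samples were 3T3-L1 cells, a mouse fibroblast line that turns into fat cells in culture, treated for 2 h with glucose oxidase, an enzyme that consumes glucose and releases hydrogen peroxide. RNA of 3 such samples was hybridised to 3 Affymetrix mouse4302 arrays. All 3 samples belong to this 1 group, and their labels call them insulin resistant. Untreated cells were not analysed here, so each value is a level after treatment and no effect of glucose oxidase was tested. The tissue label names preadipocytes, whereas the growth protocol describes cells differentiated into adipocytes. Whether they were grown as separate cultures is not stated, and their spread may be technical.

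An imprinted gene is transcribed mainly from the copy inherited from 1 parent, because DNA methylation laid down in the egg or sperm marks 1 parental copy for life. Such genes lie in clusters that often pair a protein-coding gene with a long non-coding RNA read from the opposite parental copy, as Dlk1 with Meg3 and Igf2r with Airn. Many are abundant in embryonic tissues and in stem or progenitor cells and decline as tissues mature. Several bear on fat cell formation. DLK1, also called preadipocyte factor 1, holds back adipocyte differentiation, necdin (Ndn) restrains proliferation and adipogenesis, and Mest is associated with the enlargement of fat cells. The array does not separate the parental copies, so imprinting itself was not measured.

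Some of these loci also give rise to microRNAs, which the probe sets do not read as mature molecules. They are shown because the only probe set for H19 is annotated to both H19 and Mir675, and because miR-335 and miR-770 lie within Mest and Meg3. The mature sequences are from RefSeq (GRCm38.p6), with the seed (bases 2 to 8), the part that pairs with targets, in capitals, and no 2 of these 6 share a seed.
mmu-miR-675-5p (in H19): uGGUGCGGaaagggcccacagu
mmu-miR-675-3p (in H19): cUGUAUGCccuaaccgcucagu
mmu-miR-335-5p (in Mest): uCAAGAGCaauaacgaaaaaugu
mmu-miR-335-3p (in Mest): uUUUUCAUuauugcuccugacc
mmu-miR-770-5p (in Meg3): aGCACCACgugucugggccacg
mmu-miR-770-3p (in Meg3): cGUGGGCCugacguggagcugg

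Of the 9 measured imprinted genes, 6 were above background in the treated cells, namely Dlk1, Meg3, Mest, Ndn, Plagl1 and Igf2r, and 3 were not, namely Peg3, Zim1 and Airn. Background was a log2 intensity of 7.59, the 95th percentile over 83 probe sets for chemosensory receptor genes (olfactory, vomeronasal and taste receptors). A gene passed where at least 1 of its probe sets exceeded this value in all 3 arrays. By the same rule 54.2% of all genes were above background, so the 6 of 9 is a description of these genes and does not set them apart. Counted by probe set, 12 of the 38 were above background, against 45% of all probe sets with 1 gene. The call was close for Peg3 and Airn. Their highest probe sets were among the 5 of the 38 with a mean within 0.2 of the background. A gene's level is given below as the log2 intensity of its brightest probe set on average. Levels of different genes are not comparable, because each probe set binds its target with its own strength.

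**Figure D1:**
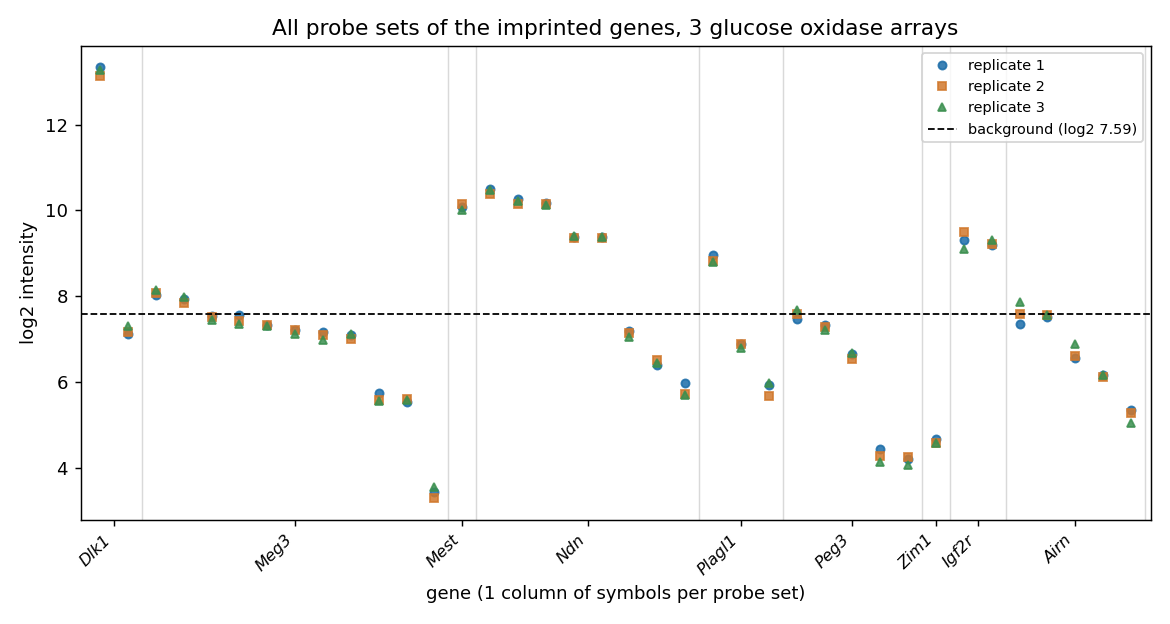
Log2 intensity (y axis) of the 38 probe sets of the 9 measured imprinted genes (x axis, 1 column of symbols per probe set, grouped by gene and ordered by mean), with 1 symbol per array and the background of 7.59 as a dashed line. The probe sets of Dlk1, Meg3, Ndn and Plagl1 lie on both sides of the line, all those of Mest and Igf2r lie above it, and the highest probe sets of Peg3 and Airn exceed it in replicate 3 alone.

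Dlk1 encodes a membrane protein with epidermal growth factor-like repeats whose outer part is shed as the soluble inhibitor of adipogenesis. Its probe set 1449939_s_at was at log2 intensities of 13.33, 13.13 and 13.26 in replicates 1, 2 and 3, a mean of 13.24 ± 0.10 (SD, n = 3), which was far above background in each array. Its other probe set, 1442724_at, was below background in every array, at 7.12, 7.16 and 7.30, with a mean of 7.19 ± 0.09 (SD, n = 3). The 2 probe sets of Dlk1 thus lay on opposite sides of the background. The suffix s_at marks a probe set whose probes match several transcripts, which may include those of other genes, so the high value depends on a probe set of this kind.

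Meg3, the maternally expressed non-coding RNA of the same cluster on chromosome 12, was read by 11 probe sets, of which 2 were above background. The highest, 1452183_a_at, was at 8.03, 8.08 and 8.15 in replicates 1, 2 and 3, a mean of 8.09 ± 0.06 (SD, n = 3). The next, 1439380_x_at, averaged 7.92 ± 0.07 (SD, n = 3). Both were highest in replicate 3. The other 9 probe sets were not above background, with means of 3.44 to 7.50. With the 99th percentile of the same receptor probe sets as background, at 8.20, Meg3 was not above it. Nor was it with a background of defensin and keratin-associated protein genes, at 8.06, or with the median of its probe sets.

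Mest, which encodes a hydrolase-like protein of the endoplasmic reticulum made from the paternal copy, had 1 probe set. It was at 10.09, 10.14 and 10.01 in replicates 1, 2 and 3, a mean of 10.08 ± 0.07 (SD, n = 3), and was above background under every alternative tried. Ndn, the paternally expressed gene for the growth suppressor necdin, had 8 probe sets, of which 5 were above background. The highest, 1435382_at, was at 10.51, 10.39 and 10.47, a mean of 10.46 ± 0.06 (SD, n = 3). The other 4 averaged 9.37 to 10.21, with an SD of 0.01 to 0.06. Replicate 2 was the lowest array in 4 of the 5. The remaining 3 probe sets of Ndn had means of 7.13, 6.46 and 5.81, each below background in every array.

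Among the measured genes, 3 encode zinc finger proteins that bind DNA. Plagl1, also known as Zac1, encodes a transcription factor that in mice regulates other imprinted genes, Igf2 and H19 among them. Its probe set 1426208_x_at was at 8.96, 8.82 and 8.80 in replicates 1, 2 and 3, a mean of 8.86 ± 0.09 (SD, n = 3), with replicate 1 the highest. The other probe sets of Plagl1 were below background, at means of 6.86 ± 0.06 and 5.87 ± 0.16 (SD, n = 3). The suffix x_at marks probes that can also match unrelated transcripts, and without probe sets ending in s_at or x_at neither Dlk1 nor Plagl1 was above background.

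Peg3 and Zim1 are zinc finger genes of 1 cluster on chromosome 7, with Peg3 expressed from the paternal and Zim1 from the maternal copy. Peg3, a marker of stem and progenitor cells in several mouse tissues, lay at the background. Its highest probe set, 1417355_at, was at 7.48, 7.58 and 7.69 in replicates 1, 2 and 3, a mean of 7.58 ± 0.10 (SD, n = 3), and exceeded background in replicate 3 alone. The other 4 probe sets had means of 4.18 to 7.28. Peg3 was above background when replicate 1 was left out and with the 90th percentile as background, at 7.39, so its presence was not settled at this signal. Zim1, with 1 probe set, was at 4.67, 4.59 and 4.59, a mean of 4.62 ± 0.04 (SD, n = 3), and stayed below background under every alternative tried.

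Igf2r encodes the receptor that carries the growth factor IGF2 and enzymes tagged with mannose 6-phosphate to lysosomes, and in mice it is expressed mainly from the maternal copy. Both of its probe sets were above background in every array. One, 1424112_at, was at 9.32, 9.50 and 9.11 in replicates 1, 2 and 3, a mean of 9.31 ± 0.20 (SD, n = 3). The other, 1424111_at, was at 9.19, 9.22 and 9.32, a mean of 9.25 ± 0.07 (SD, n = 3). Their means were only 0.06 apart, but they disagreed on the arrays, since replicate 3 was the lowest in the first and the highest in the second. No difference between the arrays in Igf2r can be read from these values.

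Airn, the long non-coding RNA that starts inside Igf2r and silences it on the paternal copy in the mouse embryo, had 5 probe sets and none was above background in all 3 arrays. The highest, 1436627_at, was at 7.36, 7.58 and 7.86 in replicates 1, 2 and 3, a mean of 7.60 ± 0.25 (SD, n = 3), with only replicate 3 above the background. The next, 1451634_at, was at 7.53, 7.57 and 7.56, just below it in each array. The other 3 had means of 6.69, 6.16 and 5.23. Airn was above background with the 90th percentile and when the mean over the arrays was used. It was also above when replicate 1 was left out, where the background, computed anew, fell to 7.55. Its call is not settled either. The 1 probe set annotated to Airn and Igf2r together was at 6.38, 6.29 and 6.42, below background.

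H19, the maternally expressed non-coding RNA that shares its cluster with Igf2, was seen only through the probe set 1448194_a_at, which the annotation gives to both Mir675 and H19. This probe set was at 5.43, 5.43 and 5.46 in replicates 1, 2 and 3, a mean of 5.44 ± 0.02 (SD, n = 3), below background in every array. Since the probe set names a pair of genes, H19 was not counted among the measured genes.

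The 3 arrays gave closely similar values, with Pearson's r across the probe sets above background of 0.997 to 0.998, a correlation over genes that are not independent replicates. Array medians were 127.6, 126.9 and 126.9 intensity units in replicates 1, 2 and 3. The median SD between arrays was 0.064 for the 12 probe sets of the imprinted genes above background and 0.051 for all probe sets above background, and 9 of the 12 exceeded 0.051. Probe sets 1449939_s_at of Dlk1 and 1424112_at of Igf2r spread more than most probe sets of like level. Of the 358 probe sets with a mean within 0.5 of that of 1449939_s_at, 1.40% had a larger SD than the 0.10 of Dlk1, and their median SD was 0.030. For 1424112_at of Igf2r the share was 0.610% of 4261 probe sets, with a median SD of 0.053. For Airn 1436627_at, at the background, it was 0.192% of 5740. At nearly the same levels, Igf2r 1424111_at had an SD of 0.067 and Airn 1451634_at an SD of 0.024. With 3 arrays an SD is itself imprecise, and these shares are descriptions.

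**Figure D2:**
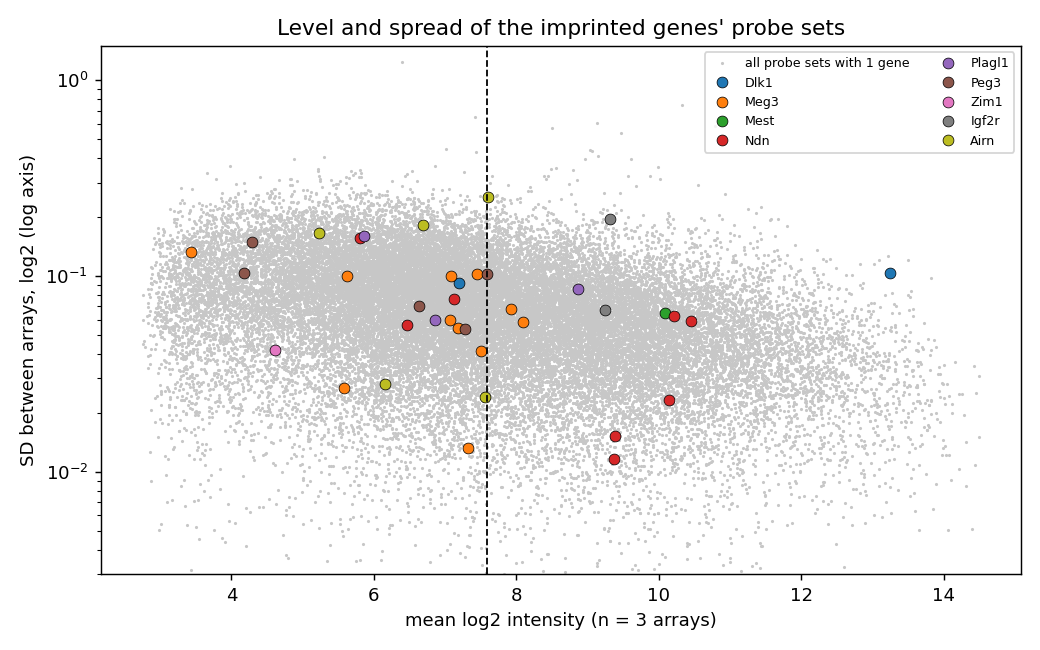
SD between the 3 arrays on the log2 scale (y axis, log axis) against mean log2 intensity (x axis) for all probe sets with 1 gene (grey) and for those of the 9 imprinted genes (coloured by gene), with the background of 7.59 as a dashed line. Dlk1 at 13.24, Igf2r at 9.31 and Airn at 7.60 lie near the upper edge of the grey points at their level.

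The arrays took different places from gene to gene. Of the 12 probe sets of the imprinted genes above background, 5 were highest in replicate 1, 2 in replicate 2 and 5 in replicate 3, and over all probe sets above background the shares were 22.6%, 34.0% and 43.3%. The lowest array was replicate 1 in 2, replicate 2 in 6 and replicate 3 in 4 of the 12, beside shares of 47.4%, 24.7% and 27.9% over all. Replicate 2 was thus more often the lowest array, and replicate 1 less often, among these few probe sets than over all, a difference that was not tested, and 5 of the 12 belong to Ndn. Dlk1, Plagl1 and 3 of the 5 Ndn probe sets were highest in replicate 1, and both Meg3 probe sets in replicate 3. Mest was highest in replicate 2. The largest departure of a single array among the 12 was the 0.20 below the mean of replicate 3 for Igf2r 1424112_at.

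**Figure D3:**
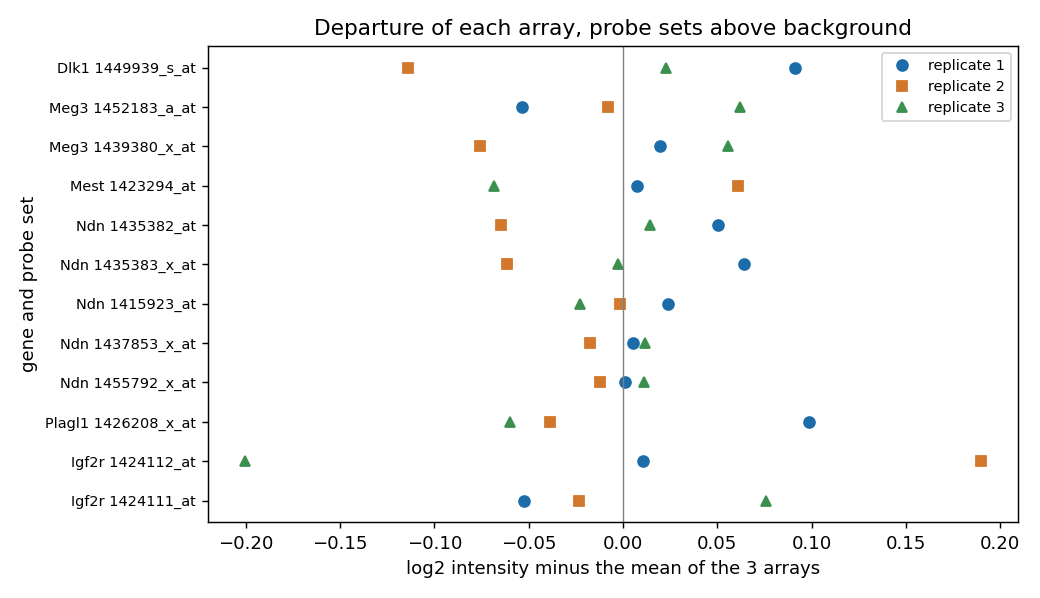
Log2 intensity of each array minus the mean of the 3 arrays (x axis) for the 12 probe sets of the imprinted genes above background (y axis), with 1 symbol per array. The order of the arrays differs from gene to gene, and between the probe sets 1424112_at and 1424111_at of Igf2r it is turned round for replicate 3.

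Genes that lie in the same imprinted clusters were measured beside them. Of 22 such neighbours listed, 14 had a probe set of their own and 6 were above background, a share of 42.9% beside the 54.2% of all genes. With the median of each gene's probe sets the count was 3 of 14, beside 43.6% of all genes. In the H19 cluster, Igf2, which encodes the growth factor bound by the IGF2 receptor, was at 10.22, 10.02 and 10.13, a mean of 10.12 ± 0.10 (SD, n = 3), in the 1 of its 2 probe sets that was above background. In the Mest cluster, Copg2, for a coat protein of transport vesicles, was at 10.69 ± 0.17, Cep41 at 8.88 ± 0.03 and the transcription factor gene Klf14 at 8.60 ± 0.04 (SD, n = 3). In the Ndn cluster, the ubiquitin ligase gene Ube3a was at 10.05 ± 0.04 (SD, n = 3), whereas Magel2, Mkrn3, Peg12 and Snrpn were not above background, at 6.05, 6.07, 4.35 and 7.24. Rian, a non-coding RNA downstream of Meg3, was at 7.67 ± 0.04 (SD, n = 3), just above background, in the 1 of its 4 probe sets that passed. Mirg, further downstream, was not above it, at 6.95. Of the probe sets of Cep41 and Ube3a, 2 of 4 and 2 of 6 were above background. Usp29 and Zim3, neighbours of Peg3, and Slc22a2, a transporter gene beside Igf2r, were not above background, at 6.67, 7.40 and 6.61.

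Of 32 measured imprinted genes of other clusters, 17 were above background (53.1%). Among them were Gnas, for a G protein subunit, at 13.56 ± 0.01, the matrix proteoglycan gene Dcn at 12.67 ± 0.08, the tetraspanin gene Cd81 at 12.56 ± 0.03 and Blcap at 11.43 ± 0.04 (SD, n = 3). The level of Gnas is that of the 1 of its 5 probe sets above background, an s_at probe set, and that of Dcn is from 1 of 2. Ascl2, Asb4, Calcr and the cell cycle inhibitor gene Cdkn1c were not, at 7.03, 4.76, 4.71 and 6.22. With the median of each gene's probe sets the count was 8 of 32, beside 43.6% of all genes. Of 17 genes that establish or maintain imprints, 10 were above background (58.8%). They included Trim28, a co-repressor that maintains imprints after fertilisation, at 11.85 ± 0.01, Yy1 at 11.53 ± 0.04, Zfp445 at 10.42 ± 0.05 and the insulator protein gene Ctcf at 9.80 ± 0.02 (SD, n = 3). Dnmt1, which encodes the maintenance methyltransferase and was picked with its values known, was at 8.43 ± 0.08 (SD, n = 3). The other 7 were not above background, namely Dnmt3b, Dnmt3l, Dppa3, Nlrp5, Tet1, Uhrf1 and Zfp57, at 7.50, 6.93, 6.06, 6.32, 7.24, 6.67 and 7.40. With the median of probe sets the count was 6 of 17, beside the same 43.6% of all genes.

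Genes of pathways in which the imprinted genes take part were counted in the same way, to be read beside the 54.2% of all genes. Of 14 genes of the DLK1 and Notch pathway, 12 were above background, and 8 with the 99th percentile as background, which 45.6% of all genes exceeded. Adam17, for the protease that sheds DLK1, was at 9.61 ± 0.08, Jag1 at 10.10 ± 0.03, Notch2 at 9.74 ± 0.07 and Rbpj at 9.59 ± 0.02 (SD, n = 3), whereas Notch4 and Dll4 were not above background, at 7.43 and 7.40. All 11 measured genes of mannose 6-phosphate sorting, the route that the IGF2 receptor serves, were above background. They included M6pr, for the smaller receptor of this route, at 11.99 ± 0.02 and the lysosomal enzyme genes Ctsb, Ctsd and Hexa at 13.49 ± 0.02, 13.10 ± 0.02 and 12.89 ± 0.02 (SD, n = 3). Of 7 measured relatives and partners of necdin, 6 were above background, with the MAGE family genes Maged1 and Maged2 at 12.16 ± 0.02 and 10.48 ± 0.05, Magee1 at 9.15 ± 0.07 and E2f4 at 9.33 ± 0.10 (SD, n = 3). Mageh1 was not, at 4.17.

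**Figure D4:**
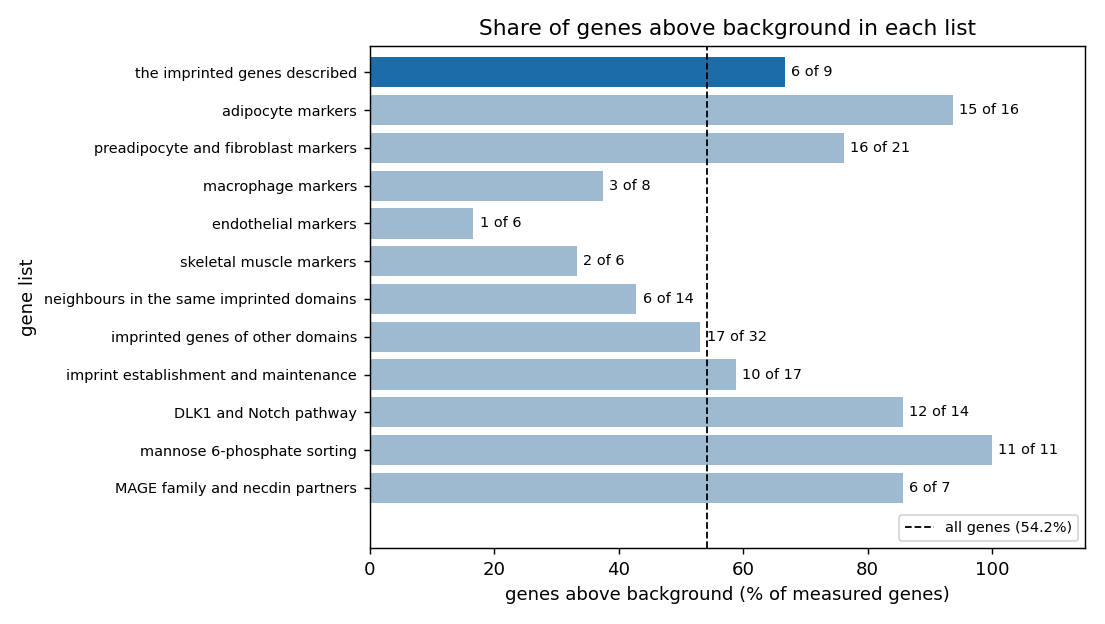
Genes above background as a percentage of measured genes (x axis) for the imprinted genes described here (top bar) and for 11 gene lists (y axis), with the count beside each bar and the share of all genes, 54.2%, as a dashed line. The share was 66.7% for the imprinted genes, from 6 of 9 genes.

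The labelled cell type was checked against marker genes, with counts to be read beside the 54.2% of all genes. Of 16 measured adipocyte markers, 15 were above background, among them Adipoq and Fabp4 at 14.49 ± 0.03 and 14.49 ± 0.02, Scd1 at 14.40 ± 0.01 and Lpl at 14.22 ± 0.01 (SD, n = 3), and the exception was Lep. Of 21 preadipocyte and fibroblast markers, 16 were above background, with Col3a1 at 13.91 ± 0.02, Col1a2 at 13.81 ± 0.03, Vim at 13.59 ± 0.02 and Postn at 12.81 ± 0.05 (SD, n = 3), and Cd24a, Cd34, Dpp4, Gata3 and Pi16 were not. Most markers of both kinds were therefore above background, beside Dlk1, whose call rested on 1 s_at probe set. With the median of probe sets the preadipocyte and fibroblast count was 12 of 21, beside 43.6% of all genes. With the 99th percentile as background it was 13, beside 45.6%. The adipocyte count was 15 under every alternative tried. In RNA of whole cultures the number of cells of a type and the RNA per cell cannot be told apart. The part of undifferentiated cells in the levels of the imprinted genes was not tested. Of the other cell types, 3 of 8 macrophage, 1 of 6 endothelial and 2 of 6 skeletal muscle markers were above background. Those were Lyz2, Cd14 and Csf1r, then Kdr, then Des and Ckm, while Ptprc, Pecam1 and Myod1 were not.

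The promoters of the imprinted genes were read from RefSeq windows of 300 bases, lying mostly upstream of a start site (GRCm38.p6), which the table holds for 9 of the 10 genes in 12 windows. CpG sites, at which imprints are methylated, numbered 1 to 34 per window, with a median of 13 against 7 over 32851 windows of all genes. The window of Igf2r held 34 and that of Airn 3, the extremes among windows of genes with 1 start site. Both are shown because Igf2r was above background while Airn, read from within it, lay at background. Whether the windows hold the methylated sites of the clusters was not examined. The window of Dlk1, which held 9, is shown because the probe sets of Dlk1 lay on opposite sides of the background. Whether CpG sites bear on these calls was not tested, and the windows say nothing about why the probe sets of Dlk1 disagree. Capitals mark CG.
Igf2r, chr17:12769657-12769956, minus strand: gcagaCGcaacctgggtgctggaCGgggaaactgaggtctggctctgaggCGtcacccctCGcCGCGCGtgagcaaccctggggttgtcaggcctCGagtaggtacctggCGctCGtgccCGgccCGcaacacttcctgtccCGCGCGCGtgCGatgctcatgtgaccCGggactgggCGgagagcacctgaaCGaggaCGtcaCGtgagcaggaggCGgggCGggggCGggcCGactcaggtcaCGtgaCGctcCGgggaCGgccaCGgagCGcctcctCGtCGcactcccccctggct
Airn, chr17:12741061-12741360, plus strand: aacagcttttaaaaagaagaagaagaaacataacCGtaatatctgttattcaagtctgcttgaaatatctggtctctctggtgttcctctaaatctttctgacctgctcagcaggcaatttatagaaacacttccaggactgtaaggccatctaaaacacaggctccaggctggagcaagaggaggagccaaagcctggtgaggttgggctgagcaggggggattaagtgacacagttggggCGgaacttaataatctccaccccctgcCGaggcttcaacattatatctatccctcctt
Dlk1, chr12:109452573-109452872, plus strand: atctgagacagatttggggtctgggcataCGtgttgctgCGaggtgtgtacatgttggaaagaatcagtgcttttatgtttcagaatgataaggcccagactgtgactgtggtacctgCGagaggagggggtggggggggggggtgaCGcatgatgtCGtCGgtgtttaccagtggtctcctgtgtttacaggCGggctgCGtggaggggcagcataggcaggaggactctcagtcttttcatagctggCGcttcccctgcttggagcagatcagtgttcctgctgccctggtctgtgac

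The windows of Plagl1, Zim1, Peg3 and Ndn held 26, 20, 13 and 11 CpG sites. The motif TGCCGC, bound by the imprint-protecting factor ZFP57 when methylated, was searched on both strands and found in 5 of the 12 windows, in Mest, Zim1, Plagl1 and Meg3, beside 11.6% of all windows. The pair of Mest windows that held it overlap almost entirely, and since the motif contains a CG, windows rich in CpG have more chances to hold it. The core GATGGC of the YY1 motif, which shares no stretch of more than 3 letters with TGCCGC, was in 2 of the 12, those of Plagl1 and Airn, beside 14.1% of all windows. A match describes the letters and is not evidence of binding.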

How the data were processed

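Transcript levels were measured in 3 samples of glucose oxidase-treated 3T3-L1 cells on the mouse4302 array. Background correction and normalization were done by the authors with RMA (affyPLM, version not stated), and the deposited values are probe set intensities on a linear scale. Their log2 was taken as deposited. Any scaling after RMA, and which arrays were normalized together, are unknown. With 3 arrays the precision is limited by their number.

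Of 45101 probe sets, 34958 had 1 gene in the platform annotation, 932 several and 9211 none. Symbols were checked through Entrez identifiers against RefSeq GRCm38.p6, used for names. Of the 34958, 34754 matched and 0 symbols changed. The members and gene lists were chosen with earlier results of these data known. The genes named were all members and, in each other list, at most 4 with the highest level and at most 4 not above background in alphabetical order. Other genes of the lists were named after their values were seen, as were the level window of 0.5 and the limit of 0.2 around the background. The code for the background calls was run on simulated probe sets placed clearly above or below the background. That run cannot show how reliable calls near the background are. No comparison between groups was possible. Protein sequences were not used here. Python 3.11.15, pandas 2.3.3, numpy 2.4.6 and matplotlib 3.10.9 were used.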

Additional observations from a re-analysis of the deposited data

How the results depend on the processing

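No paired analysis was possible because there is only 1 group of samples. The alternatives were a different background (percentile or genes), the median over probe sets in place of the brightest, leaving out those ending in s_at or x_at, adding probe sets shared with other genes, requiring only the mean to exceed background, centring the arrays, and leaving out each array in turn. The count of imprinted genes above background, 6, was 5 with the 99th percentile and with a background of defensin and keratin-associated protein genes, 8 with the 90th percentile, 7 with the mean over the arrays, 6 on centring and 6 to 8 on leaving out an array, with 8 without replicate 1. The median of probe sets left 4, without Meg3 and Plagl1, and leaving out s_at and x_at probe sets also left 4, without Dlk1 and Plagl1. Mest, Ndn and Igf2r were above background in all of these, and Zim1 in none. The share of all genes, 54.2%, moved as well. The 99th percentile gave 45.6%, the defensin and keratin-associated protein genes 47.6% and the 90th percentile 57.4%. Taking the median gave 43.6%, dropping s_at and x_at probe sets 52.9% and the mean over the arrays 55.3%. Centring gave 54.2% and leaving out an array 53.7% to 55.0%, each with the background computed anew. The share of all genes thus fell on taking the median too, and whether the fall to 4 went beyond it was not tested. The count of probe sets, 12, was 10 and 15 with the 99th and 90th percentiles and 12 to 15 on leaving out an array. The share of all probe sets, 45% in the main setting, was not computed for these alternatives, so these counts stand without a comparison.

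With the median of probe sets, Dlk1 was at 10.22, Ndn at 9.38, Meg3 at 7.19, Plagl1 at 6.86, Airn at 6.69 and Peg3 at 6.63. Without s_at and x_at probe sets, Dlk1 was at 7.19 and Plagl1 at 6.86. The median SD of the 6 genes above background, 0.076, ranged from 0.063 to 0.089. Among the lists, the median of probe sets gave 3 for neighbours in the same clusters, 8 for imprinted genes of other clusters and 6 for imprint establishment and maintenance. The 99th percentile gave 0 for endothelial markers. The shares of all genes under these settings were 43.6% and 45.6%. Another 106 list counts under the alternatives stayed within 1.5 times their value. Except where a setting drops a probe set, the cause was not tested. The calls for Peg3 and Airn lay at the background and remain uncertain. That for Meg3 changed with the choice of background and with the median of probe sets.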
